A study of Mus musculus with 6 samples.

Results

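The genes described here encode the enzymes that add and remove methyl groups on histones and DNA and those that take acetyl groups off histones. They were chosen by symbol alone: the Kdm demethylases except Kdm5d, the Kmt, Setd, Setdb and Suv39h methyltransferases, Dnmt1, Dnmt3a, Dnmt3b and Dnmt3l, the 3 Tet dioxygenases, the Hdac deacetylases and the 7 sirtuins. The rule found 62 genes among 52006 named loci, and all 62 passed the filter on low counts that left 16787 loci for testing. RNA was sequenced from cultured mouse embryonic fibroblasts, connective-tissue cells grown out of embryos, in 3 libraries labelled as Fbxw7 KO and 3 libraries labelled as WT. Fbxw7 is the part of a ubiquitin ligase that selects proteins such as MYC, cyclin E and NOTCH for degradation, and the question behind the comparison was which RNAs differ without it. Both groups grew in DMEM with serum and non-essential amino acids. The labels gave no deleted exon, strain, embryo, sex, passage or clone, and whether the 3 libraries of a group were separate cultures is not stated, so p-values measure only the spread between these libraries, which may be technical.

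Chromatin-modifying enzymes work in opposing pairs. Histone methyltransferases write marks that can either accompany active genes or build silent heterochromatin, and demethylases remove them using a flavin cofactor (Kdm1a, Kdm1b) or iron and 2-oxoglutarate (the other Kdm enzymes, which carry a JmjC domain). Dnmt1 copies DNA methylation after replication, Dnmt3a and Dnmt3b set it anew with the help of the catalytically inactive Dnmt3l, and Tet enzymes oxidise methylcytosine. Zinc-dependent Hdac enzymes and NAD-dependent sirtuins remove acetyl groups from histones and from many other proteins.

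The deposited estimated fragments summed to 55720129 to 64198455 per library. Fbxw7 itself read 27.6, 27.4 and 24.1 CPM (estimated fragments per library size after TMM scaling) in Fbxw7 KO libraries, against 29.5, 28.4 and 30.1 CPM in WT libraries, with a log2 fold change of -0.16 ± 0.10 (SE) that did not pass the test (edgeR, Benjamini-Hochberg adjusted p = 0.332). Reads were summed over the whole gene and the deleted part was not given, so this value does not check the labels. The median squared difference between replicates 1 and 2 was 6.48 (Fbxw7 KO) and 7.33 (WT) times that of sampling noise. Between replicate 3 and the others of its genotype it was 26.7 to 43.4 times. As median absolute log2 differences these were 0.119 (Fbxw7 KO) and 0.129 (WT) for replicates 1 and 2, and 0.231 to 0.282 with replicate 3. All 10 fibroblast markers were detected, with a summed level of 31943 to 38664 CPM in Fbxw7 KO and 29966 to 40276 CPM in WT libraries; Dcn and Lum were higher and Vim was lower in Fbxw7 KO. The summed markers of other cells were at most 0.154 CPM in Fbxw7 KO against 0.454 CPM in WT for 6 epithelial genes, 1.42 against 9.24 CPM for 4 endothelial genes (Pecam1 and Cdh5 had means under 0.1 CPM) and 13.5 against 21.2 CPM for 5 leukocyte genes, most of it Lyz2. Muscle, neural and germ-cell genes summed to at most 0.205, 7.39 and 3.21 CPM in Fbxw7 KO, against 0.245, 7.38 and 0.763 CPM in WT. Kdr, Tek, Cd68 and Lyz2 fell in Fbxw7 KO; the part of other cells in the results below was not tested, and in bulk RNA fewer cells of a type and less RNA per cell cannot be told apart.

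Most of these enzyme genes differed little or not detectably between the genotypes. Of the 62 genes, 6 had a Benjamini-Hochberg adjusted p under 0.05 in edgeR, adjusted over all loci: Dnmt3l, Setd6, Hdac3 and Hdac6 rose in Fbxw7 KO cells, and Tet1 and Kdm8 fell. That is 9.68% of the genes, where 16.1% of all tested loci passed, 8.03% higher and 8.08% lower. The fold change was within 0.5 on the log2 scale for 55 of the 62, and Tet1 was the one gene that changed at least 2-fold. The median log2 fold change was 0.07 over the 62 genes and 0.01 over all loci, with 38 genes above 0 and 24 below. Knockout and WT libraries did not overlap for 21 genes (33.9%), 14 of them higher and 7 lower in Fbxw7 KO, against 37.7% of all loci. An unadjusted p under 0.05 was reached by 17 genes, where 31.6% of all loci reached it. With library size as the only scaling, which put the median log2 fold change of all loci at 0.105 in place of 0.007, 10 enzyme genes were higher and 1 was lower, with 17.8% of all loci called. Single libraries weighed on the count and on the share of all loci called. Without Fbxw7 KO replicate 1, 2 or 3 the count was 1, 2 or 5, with 6.79%, 8.5% or 19.1% of all loci called. Without WT replicate 1, 2 or 3 it was 1, 1 or 6, with 7.56%, 7.39% or 18.5% of all loci called. Without replicate 3 of both genotypes 26 genes were called (15 higher, 11 lower), when 41.3% of all loci were called, and after adding up replicates 1 and 2 within each genotype none was (2.71% of all loci).

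**Figure D1:**
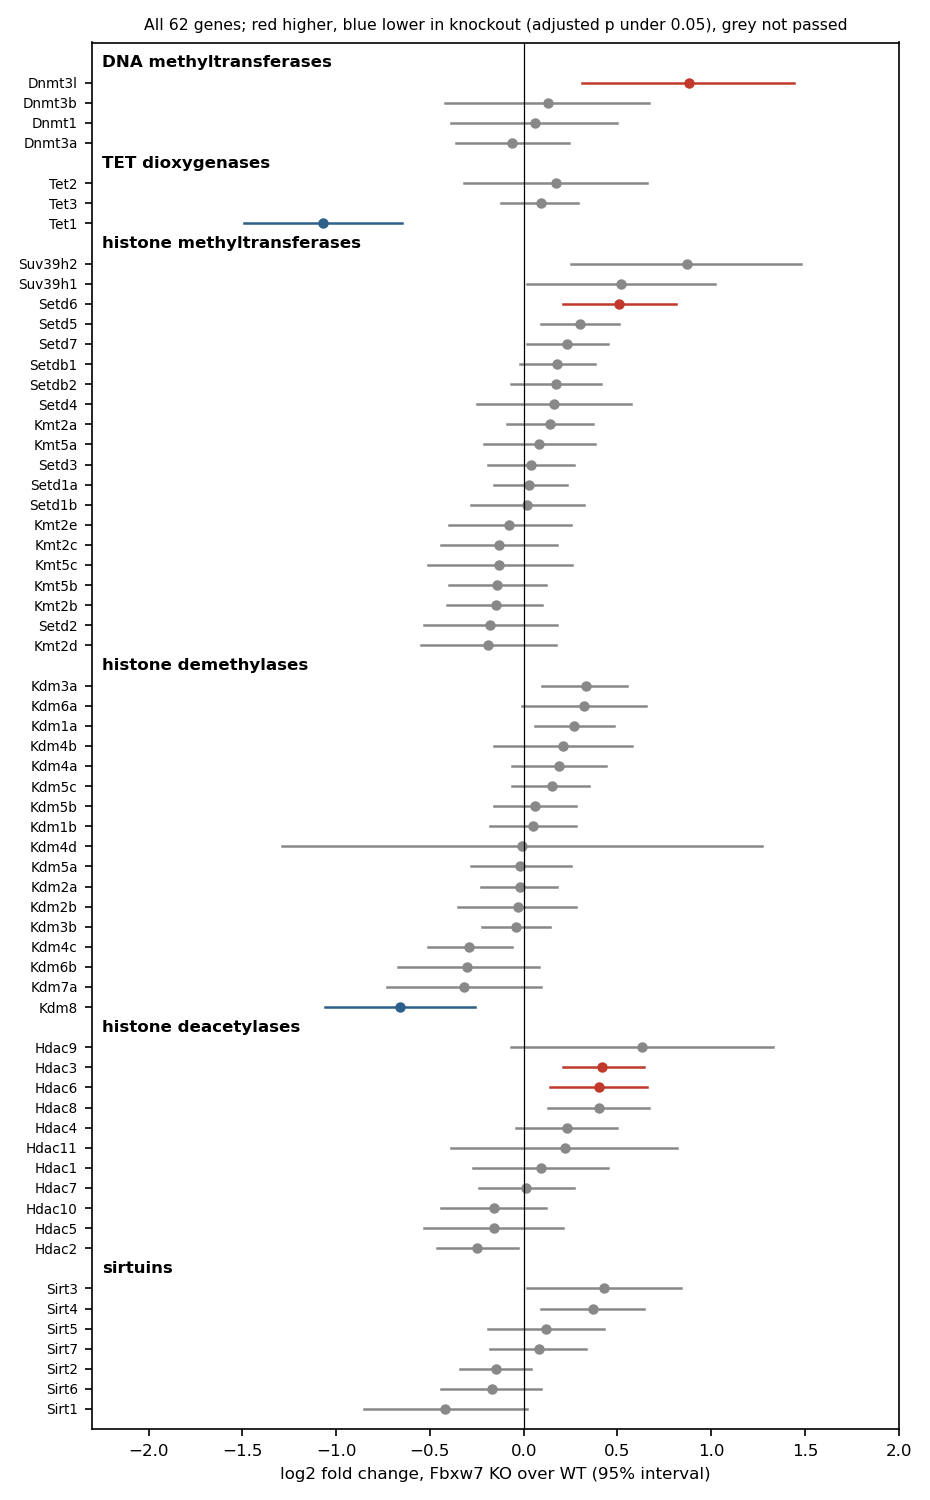
Log2 fold change of each of the 62 enzyme genes, Fbxw7 KO over WT, by kind of enzyme (points, edgeR estimate; bars, 95% interval; n = 3 libraries per genotype). The point of Tet1 lies lowest at -1.07 and that of Dnmt3l highest at 0.88, while most intervals cross 0.

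The upstream sequences of Tet1, Kdm8, Setd6 and Hdac6 are given as those of 4 of the 6 genes that passed the test, both that fell and 2 that rose; those of Dnmt3l and Hdac3 are not shown. Each window, from RefSeq on GRCm38.p6, runs from 250 bases before to 50 bases after the annotated start on the gene's own strand, and the capitals mark CG dinucleotides, the sites at which Dnmt and Tet enzymes act. The windows are chr10:62887275-62887574 (minus strand) for Tet1, chr7:125444370-125444669 (plus strand) for Kdm8, chr8:95715663-95715962 (plus strand) for Setd6 and chrX:7947840-7948139 (minus strand) for Hdac6.
Tet1: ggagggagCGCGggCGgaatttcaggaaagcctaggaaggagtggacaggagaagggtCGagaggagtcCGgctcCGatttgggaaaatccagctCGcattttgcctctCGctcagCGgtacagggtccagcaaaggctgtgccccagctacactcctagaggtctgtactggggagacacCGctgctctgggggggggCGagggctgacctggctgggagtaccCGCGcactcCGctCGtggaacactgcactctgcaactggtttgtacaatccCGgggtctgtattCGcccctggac
Kdm8: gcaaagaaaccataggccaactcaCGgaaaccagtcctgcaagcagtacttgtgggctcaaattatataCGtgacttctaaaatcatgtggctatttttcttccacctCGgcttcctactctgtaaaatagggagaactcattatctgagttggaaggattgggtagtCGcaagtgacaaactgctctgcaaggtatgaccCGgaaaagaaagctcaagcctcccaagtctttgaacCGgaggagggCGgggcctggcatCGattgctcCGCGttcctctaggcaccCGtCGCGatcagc
Setd6: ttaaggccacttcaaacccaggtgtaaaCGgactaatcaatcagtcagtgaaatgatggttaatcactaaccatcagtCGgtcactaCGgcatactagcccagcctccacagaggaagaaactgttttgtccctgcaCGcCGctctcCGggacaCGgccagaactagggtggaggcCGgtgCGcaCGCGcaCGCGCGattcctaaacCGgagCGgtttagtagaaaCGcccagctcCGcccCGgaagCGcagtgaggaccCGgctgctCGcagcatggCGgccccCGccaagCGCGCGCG
Hdac6: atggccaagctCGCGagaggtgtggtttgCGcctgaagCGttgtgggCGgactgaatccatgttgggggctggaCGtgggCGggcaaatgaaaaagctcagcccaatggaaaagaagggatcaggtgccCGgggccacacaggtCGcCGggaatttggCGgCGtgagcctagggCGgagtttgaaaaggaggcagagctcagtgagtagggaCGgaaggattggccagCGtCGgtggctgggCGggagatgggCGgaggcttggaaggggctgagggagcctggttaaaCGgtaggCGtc
The RefSeq start used for Tet1 lies inside the longer span that GENCODE gives this gene. The windows hold 17 (Tet1), 13 (Kdm8), 28 (Setd6) and 20 (Hdac6) CG dinucleotides. RefSeq windows matched 51 of the 62 genes by symbol, and their 74 windows had a median of 22 CG dinucleotides (quartiles 15 and 34.5), against a median of 7 over all 32851 windows. On either strand the MYC-type E-box CACGTG, whose centre overlaps the hypoxia core, occurred in 8.11% of the 74 windows and 7.15% of all windows. The hypoxia core ACGTG or GCGTG occurred in 54.1% of the 74 windows and 43.8% of all windows. Both forms of this core hold a CG, and the windows compared were not matched for their number of CG dinucleotides. The E2F letters TTTCGCGC or TTTGGCGC occurred in 1.35% of the 74 windows and 0.813% of all windows. None of the 4 printed windows had the E-box or the E2F letters, and the hypoxia core occurred at 0 places in the Tet1 window, 1 in that of Kdm8, 3 in that of Setd6 and 2 in that of Hdac6.

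Tet1, one of 3 dioxygenases that start DNA demethylation, fell most. It read 9.31, 8.38 and 10.2 CPM in Fbxw7 KO libraries, against 20.4, 23.3 and 14.7 CPM in WT libraries. Every knockout library lay below every WT library, and WT replicate 3 lay nearest to the knockout. The mean was 9.28 ± 0.889 CPM in Fbxw7 KO and 19.5 ± 4.34 CPM in WT (SD, n = 3 each), and the log2 fold change was -1.07 ± 0.18 (SE; 95% interval -1.49 to -0.65; edgeR, Benjamini-Hochberg adjusted p = 0.0083). The call held with each library left out in turn (adjusted p = 0.0018 to 0.0379 in edgeR), and was lost with replicates 1 and 2 summed (adjusted p = 0.112). Per transcript length the levels were nearer, at 1.63, 1.47 and 1.42 FPKM (fragments per unit of transcript length and depth) in Fbxw7 KO and 2.48, 2.79 and 1.67 FPKM in WT. In limma on log2(FPKM + 1) the difference was -0.39 and did not pass (Benjamini-Hochberg adjusted p = 0.154). The added 1 narrows differences at such low levels, so -0.39 and -1.07 are on unlike scales. Tet3 was the most abundant of the 3, at 4.4 ± 0.18 FPKM in Fbxw7 KO and 4.34 ± 0.142 FPKM in WT, followed in the knockout by Tet2 at 2.12 ± 0.403 FPKM, against 1.8 ± 0.445 FPKM in WT. Neither passed the test: the log2 fold change was 0.17 (95% interval -0.32 to 0.66) for Tet2 and 0.09 (95% interval -0.12 to 0.29) for Tet3. The estimate for Tet2 was -0.03 without WT replicate 3.

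**Figure D2:**
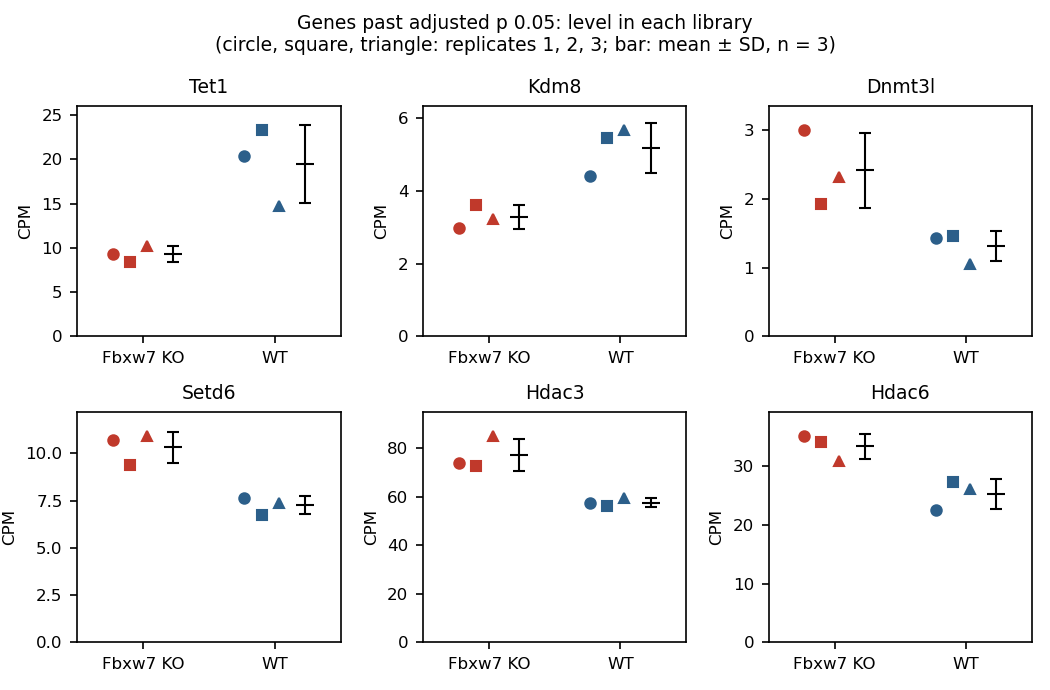
Level in CPM of the 6 enzyme genes past the threshold, one point per library, Fbxw7 KO (red) left of WT (blue), with mean and SD (n = 3). The genotypes do not overlap in any panel; WT replicate 3 of Tet1, at 14.7 CPM, lies closest to the knockout libraries.

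Tet1 lies on chromosome 10 (62804570 to 62908996, minus strand, GENCODE M21 on mm10), where other genes were lower as well. Of 823 tested loci on that chromosome 197 fell and 47 rose in Fbxw7 KO, together 29.6%, with a median log2 fold change of -0.28. On the other 19 chromosomes tested the share called was 12% to 18.9% and the median was -0.14 to 0.12. The median deviation of chromosome 10 loci from their mean over all libraries was -0.13, -0.12 and -0.09 in Fbxw7 KO replicates 1, 2 and 3, against 0.11, 0.11 and 0.14 in WT replicates 1, 2 and 3 (log2 of CPM + 0.5). All 3 knockout libraries were therefore below all 3 WT libraries for the chromosome as a whole. Of the 5 enzyme genes there, 4 had estimates below 0: Tet1, Sirt1 at -0.42, Hdac2 at -0.25 and Sirt6 at -0.17, while Dnmt3l was above 0. The part of chromosome 10 in the Tet1 result was not tested.

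**Figure D3:**
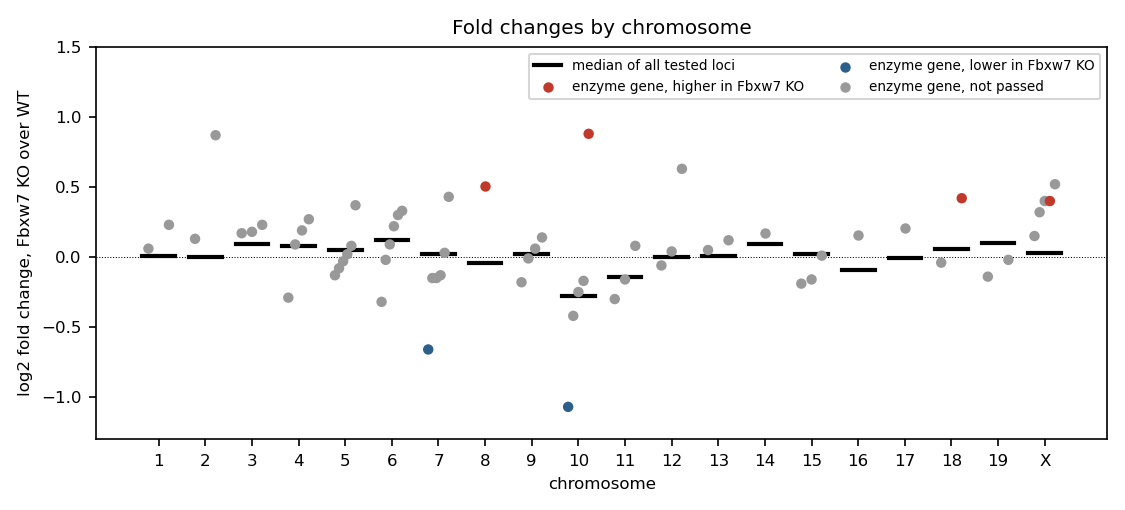
Log2 fold change, Fbxw7 KO over WT, of the 62 enzyme genes (points) by chromosome, with the median of all tested loci of each chromosome (black bars). The bar of chromosome 10 is lowest, at -0.28, and 4 of its 5 enzyme genes lie below 0.

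Among the DNA methyltransferases, Dnmt3l passed and the catalytic enzymes did not. Dnmt3l read 3, 1.93 and 2.32 CPM in Fbxw7 KO libraries, against 1.43, 1.46 and 1.06 CPM in WT libraries. The knockout libraries were all higher, at a low level. Its log2 fold change was 0.88 ± 0.24 (SE; 95% interval 0.31 to 1.44; edgeR, Benjamini-Hochberg adjusted p = 0.0476), and no fit that left out 1 library kept the call (adjusted p = 0.0565 to 0.177). In FPKM the genotypes of Dnmt3l overlapped, with 4.99, 2.8 and 3.48 FPKM in Fbxw7 KO and 2.81, 2.64 and 1.43 FPKM in WT. The gene (chromosome 10, 78041947 to 78063622, plus strand) overlaps Aire on the other strand, and the sources used here do not say whether strand was used in counting. Dnmt1, the maintenance enzyme, read 123, 129 and 117 CPM in Fbxw7 KO libraries, against 97.9, 96.6 and 159 CPM in WT libraries. The high WT replicate 3 set its spread: the log2 fold change of 0.06 (95% interval -0.39 to 0.50) was 0.33 and passed without that library (edgeR, Benjamini-Hochberg adjusted p = 0.0418). Dnmt3a averaged 59.2 ± 2.01 CPM in Fbxw7 KO and 61.7 ± 10.2 CPM in WT, and Dnmt3b 1.88 ± 0.408 CPM in Fbxw7 KO and 1.73 ± 0.228 CPM in WT (SD, n = 3 each); neither passed.

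Of 20 histone methyltransferase genes 1 passed (5%, where 16.1% of all loci were called), and their median log2 fold change was 0.06. Setd6, a lysine methyltransferase known in human cells for modifying the NF-kB subunit RELA, rose. It read 10.7, 9.39 and 10.9 CPM in Fbxw7 KO libraries, against 7.66, 6.75 and 7.37 CPM in WT libraries. The groups were well apart, with a log2 fold change of 0.51 ± 0.13 (SE; 95% interval 0.21 to 0.81; edgeR, Benjamini-Hochberg adjusted p = 0.0355). The adjusted p of Setd6 (chromosome 8, 95715881 to 95719010, plus strand) was 0.145, 0.0657 and 0.0544 without Fbxw7 KO replicates 1, 2 and 3, against 0.0964, 0.131 and 0.0438 without WT replicates 1, 2 and 3. The Suv39h enzymes, which methylate histone H3 in pericentric heterochromatin, had larger estimates with wider errors. Suv39h2 read 6, 4.88 and 8.11 CPM in Fbxw7 KO libraries, against 3.01, 2.77 and 4.61 CPM in WT libraries. Suv39h1 read 24.7, 24.5 and 26.8 CPM in Fbxw7 KO libraries, against 13.7, 14.8 and 24.5 CPM in WT libraries. In both, WT replicate 3 was the WT library nearest to the knockout. The log2 fold change was 0.87 ± 0.27 for Suv39h2 (SE; adjusted p = 0.0628) and 0.52 ± 0.22 for Suv39h1 (adjusted p = 0.145), both in edgeR with Benjamini-Hochberg adjustment. Without WT replicate 3 they were 1.13 for Suv39h2 (adjusted p = 0.0215) and 0.83 for Suv39h1 (adjusted p = 0.00391).

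The other histone methyltransferases did not pass. Setd5, a chromatin regulator whose catalytic activity is debated, averaged 203 ± 10.7 CPM in Fbxw7 KO and 165 ± 9.33 CPM in WT, a log2 fold change of 0.30 (95% interval 0.09 to 0.51; edgeR, Benjamini-Hochberg adjusted p = 0.0619). Setd7, a monomethyltransferase of histones and other proteins, was at 0.23 (95% interval 0.02 to 0.45). Setdb1 and Setdb2 did not overlap between genotypes either: Setdb1 averaged 50 ± 1.51 CPM in Fbxw7 KO and 44 ± 2.24 CPM in WT, and Setdb2 16.2 ± 0.423 CPM in Fbxw7 KO and 14.4 ± 0.595 CPM in WT. In all, 6 of the 20 histone methyltransferase genes (30%) did not overlap, against 37.7% of all loci. Setdb1 silences retroelements. The Kmt2 genes, whose products methylate histone H3 at promoters and enhancers, had estimates of 0.14 for Kmt2a, -0.15 for Kmt2b, -0.13 for Kmt2c and -0.19 for Kmt2d. Setd2, which methylates histone H3 along transcribed genes, read 126, 98.6 and 145 CPM in Fbxw7 KO libraries, against 144, 150 and 123 CPM in WT libraries, so its libraries overlapped. Kmt5a, the enzyme that monomethylates histone H4 in dividing cells, was the most abundant of the methyltransferases per length, at 47.1 FPKM in Fbxw7 KO and 43.9 FPKM in WT. The locus of Setd1a is shared with Hsd3b7 and another coding gene, so its level is uncertain.

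Among the 17 demethylase genes Kdm8 fell and none rose (5.88%, where 16.1% of all loci were called), and the median log2 fold change was -0.01. Kdm8 encodes a JmjC-domain oxygenase whose activity on histones is debated. It read 2.97, 3.62 and 3.23 CPM in Fbxw7 KO libraries, against 4.4, 5.46 and 5.66 CPM in WT libraries. The genotypes did not overlap, and the log2 fold change was -0.66 ± 0.17 (SE; 95% interval -1.06 to -0.26; edgeR, Benjamini-Hochberg adjusted p = 0.0384). No fit that left out 1 library kept the call of Kdm8 (chromosome 7, 125444676 to 125462269, plus strand; adjusted p = 0.0541 to 0.15). Another 3 demethylases did not overlap between genotypes and did not pass. With Kdm8, 23.5% of the demethylase genes did not overlap, against 37.7% of all loci. Kdm3a, which removes silencing methylation and is known as a hypoxia-induced gene, averaged 70.7 ± 4.26 CPM in Fbxw7 KO and 56.4 ± 4.48 CPM in WT (log2 fold change 0.33, 95% interval 0.10 to 0.55). Kdm1a, the flavin-dependent demethylase of the CoREST complex, averaged 101 ± 7.64 CPM in Fbxw7 KO and 83.8 ± 2.67 CPM in WT (log2 fold change 0.27, 95% interval 0.06 to 0.48). Kdm4c, a demethylase of heterochromatic marks, averaged 35.3 ± 1.74 CPM in Fbxw7 KO and 43.1 ± 3.17 CPM in WT (log2 fold change -0.29, 95% interval -0.51 to -0.06). Their edgeR Benjamini-Hochberg adjusted p were 0.0592 for Kdm3a, 0.0799 for Kdm1a and 0.0833 for Kdm4c. Kdm6b, which removes the Polycomb mark, was at -0.30 with an interval from -0.67 to 0.08. Kdm5b, a demethylase at active promoters, had the highest CPM of the demethylases in Fbxw7 KO, at 189 ± 9.7 CPM. In WT it averaged 182 ± 13.4 CPM, level with Kdm2a at 182 ± 9.75 CPM. The estimate for Kdm5b was 0.06.

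Of the 11 Hdac genes 2 rose, 18.2% where 16.1% of all loci were called, and the median log2 fold change was 0.22. Hdac3 is the catalytic subunit of nuclear receptor corepressor complexes. It read 74.1, 72.9 and 85 CPM in Fbxw7 KO libraries, against 57.3, 56.1 and 59.6 CPM in WT libraries. All knockout libraries were above all WT libraries by more than the spread within either genotype. The log2 fold change was 0.42 ± 0.09 (SE; 95% interval 0.21 to 0.64; edgeR, Benjamini-Hochberg adjusted p = 0.0217). The call of Hdac3 (chromosome 18, 37935844 to 37955016, minus strand) was lost without Fbxw7 KO replicate 1 (adjusted p = 0.0755), WT replicate 1 (0.0874) or WT replicate 2 (0.0879), and it was also made by limma on log2(FPKM + 1) (adjusted p = 0.0483). Hdac6, a mainly cytoplasmic deacetylase of tubulin, read 35, 34 and 30.8 CPM in Fbxw7 KO libraries, against 22.4, 27.2 and 26.1 CPM in WT libraries. It rose by 0.40 ± 0.11 on the log2 scale (SE; 95% interval 0.14 to 0.66; edgeR, Benjamini-Hochberg adjusted p = 0.0493), just inside the threshold. Hdac6 (chromosome X, 7930120 to 7947889, minus strand) was called without Fbxw7 KO replicate 3 (adjusted p = 0.0369) and with no other library left out (0.0588 to 0.193).

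Hdac2, a class I deacetylase of the Sin3, NuRD and CoREST complexes, was the most abundant of the 62 genes per length. It reached 90.9, 86.3 and 94 FPKM in Fbxw7 KO libraries, against 113, 105 and 115 FPKM in WT libraries. The genotypes did not overlap, and the log2 fold change of the counts, -0.25 (95% interval -0.46 to -0.03), did not pass (edgeR, Benjamini-Hochberg adjusted p = 0.115). Its close relative Hdac1 averaged 9.09 ± 0.496 CPM in Fbxw7 KO and 8.56 ± 1.44 CPM in WT. Hdac8, a class I enzyme known for deacetylating cohesin, read 20.9, 22.4 and 25.5 CPM in Fbxw7 KO libraries, against 18.2, 17.7 and 16.2 CPM in WT libraries (log2 fold change 0.40, 95% interval 0.13 to 0.67; adjusted p = 0.0563 in edgeR). The class IIa genes, whose products act as signal-dependent repressors of MEF2, did not pass: the estimates were 0.23 for Hdac4, -0.16 for Hdac5 and 0.63 for Hdac9, which was near the detection limit at 1.03 ± 0.288 CPM in Fbxw7 KO and 0.662 ± 0.124 CPM in WT. Hdac7 averaged 119 ± 12.9 CPM in Fbxw7 KO and 118 ± 8.28 CPM in WT.

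None of the 7 sirtuin genes passed in edgeR, where 16.1% of all loci did. An unadjusted p under 0.05 was reached by 2 of them and by 31.6% of all loci, and their median log2 fold change was 0.08. Sirt1, the nuclear deacetylase of histones and of p53, read 20, 16.2 and 28 CPM in Fbxw7 KO libraries, against 28.3, 28.9 and 28.5 CPM in WT libraries. Replicate 3 of the knockout stood next to WT, and without it the log2 fold change was -0.66 and passed (edgeR, Benjamini-Hochberg adjusted p = 0.0117), against -0.42 (95% interval -0.85 to 0.02; adjusted p = 0.174) with all libraries. Sirt1 lies 410 kb from Tet1. Of the 7 sirtuin genes 4 (57.1%) did not overlap between genotypes, against 37.7% of all loci. Sirt1 and Sirt2 were the 2 lower ones, and the mitochondrial Sirt3 and Sirt4 were the 2 higher ones. The mitochondrial Sirt5 overlapped, with a log2 fold change of 0.12. Sirt3 averaged 10.7 ± 0.885 CPM in Fbxw7 KO and 7.96 ± 1.64 CPM in WT (adjusted p = 0.146 in edgeR), and Sirt4 9.57 ± 0.327 CPM in Fbxw7 KO and 7.42 ± 0.341 CPM in WT (adjusted p = 0.0776 in edgeR). Sirt2, the mainly cytoplasmic tubulin deacetylase, was the most abundant sirtuin, at 49.7 FPKM in Fbxw7 KO and 57.4 FPKM in WT. The locus of Sirt7 is shared with Mafg, so its level is uncertain.

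Libraries of one genotype differed in genes that dividing cells use. The summed level of 10 proliferation genes such as Mki67, Pcna and Mcm2 was 546, 551 and 654 CPM in Fbxw7 KO replicates 1, 2 and 3, against 404, 383 and 735 CPM in WT replicates 1, 2 and 3. None of the 10 passed in edgeR, and their median log2 fold change was 0.35. WT replicate 3 was the highest WT library for this sum, and likewise for Dnmt1, Suv39h1, Suv39h2 and Kmt5a, which read 101 CPM there and 79 and 74.8 CPM in the other WT libraries. In Fbxw7 KO, replicate 3 was likewise the highest for the sum, Suv39h1, Suv39h2 and Kmt5a, but the lowest for Dnmt1. The proliferation genes were split there. Mki67, Top2a, Cdk1, Ccnb1 and Ccna2 were highest in Fbxw7 KO replicate 3, whereas Mcm2, Mcm3, Mcm5 and Pcna were lowest and Rrm2 lay between. Dnmt1, Suv39h1, Suv39h2 and Kmt5a were picked after their values were seen. The part of proliferation in the values of these enzymes was not tested. Within the genotypes the median coefficient of variation of the 62 genes was 8.33% in Fbxw7 KO and 8.94% in WT. Replicate 3 was the highest or lowest library of its genotype for 50 of 62 genes in Fbxw7 KO and for 49 of 62 in WT.

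**Figure D4:**
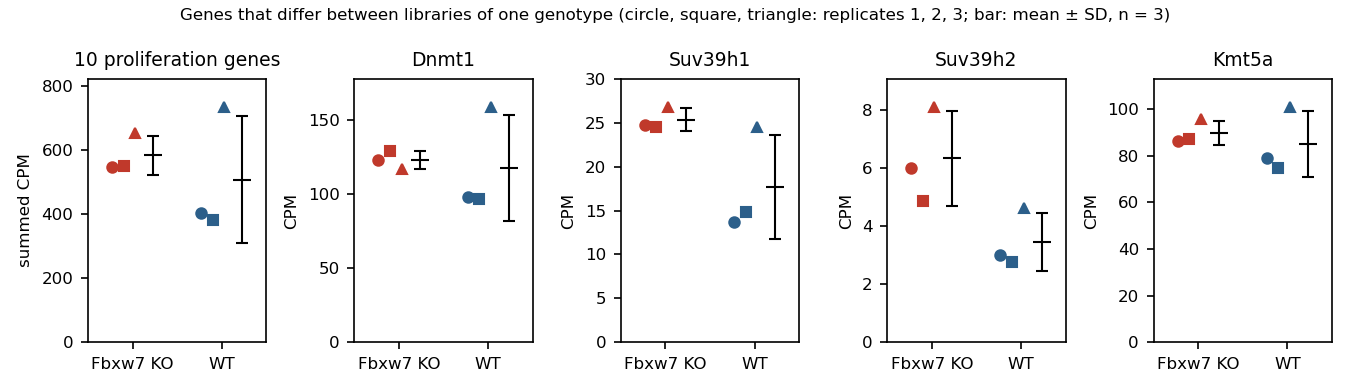
Summed CPM of 10 proliferation genes and CPM of Dnmt1, Suv39h1, Suv39h2 and Kmt5a in each library, Fbxw7 KO (red) left of WT (blue), with mean and SD (n = 3). In all 5 panels WT replicate 3 (triangle) is the highest WT library.

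Transcripts linked to the sex chromosomes differed between the genotypes. Xist, the noncoding RNA of X inactivation, read 1046, 798 and 890 CPM in Fbxw7 KO libraries, against 2.17, 2.02 and 0.213 CPM in WT libraries. In FPKM it read 78.1, 58 and 68.6 in Fbxw7 KO and 0.111, 21.6 and 0.0114 in WT libraries. The 2 measures thus disagree for WT replicate 2, and the reason was not tested. Kdm5d, a Y-linked demethylase, read 27.3, 24.3 and 28.1 CPM in Fbxw7 KO libraries, against 54.8, 57.1 and 44.9 CPM in WT libraries. Uty, the Y-linked relative of Kdm6a, read 12.5, 9.69 and 14.6 CPM in Fbxw7 KO libraries, against 38.7, 34.2 and 28.5 CPM in WT libraries. All 3 passed (edgeR, Benjamini-Hochberg adjusted p = 0.00033 for Xist, 0.00233 for Kdm5d and 0.00234 for Uty). The 5 X-linked enzyme genes all had estimates above 0: Suv39h1 at 0.52, Hdac6 and Hdac8 at 0.40, Kdm6a at 0.32 and Kdm5c at 0.15. Kdm5c and Kdm6a are known in mice to escape X inactivation; Kdm6a averaged 36.4 ± 4.55 CPM in Fbxw7 KO and 29.2 ± 4.25 CPM in WT, and Kdm5c 150 ± 5.93 CPM in Fbxw7 KO and 136 ± 7.89 CPM in WT, and neither passed. Over all 597 tested loci of the X chromosome the median was 0.03 and 17.4% were called. Genotype and these sex-linked differences cannot be told apart in this design.

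Within families, the share of each enzyme was compared per transcript length, and no share passed a test. Shares of the summed FPKM were computed for 47 genes in 15 families, and the genotypes did not overlap for 18 of them (over all loci, the CPM of 37.7% did not overlap); with 3 against 3 libraries an exact two-sided permutation test cannot go below 0.1, and each of these 18 had that p (0.26 after Benjamini-Hochberg adjustment over the 47). Tet1 made up 18.9%, 19.9% and 17.6% of the Tet family in Fbxw7 KO libraries, against 28.5%, 29.6% and 23% in WT libraries. Hdac2 made up 60.8% ± 1.08 of class I Hdac RNA in Fbxw7 KO and 70.4% ± 0.724 in WT (SD, n = 3 each). In the same class Hdac3 made up 26% ± 0.873 in Fbxw7 KO and 19.1% ± 0.524 in WT. Hdac8 had the smaller share of 9.2% ± 0.47 in Fbxw7 KO and 6.77% ± 0.538 in WT. In class IIb Hdac6 made up 66.8% ± 2.23 in Fbxw7 KO and 56% ± 2.24 in WT, the rest being Hdac10, a polyamine deacetylase. Kdm4c held 18% ± 2.36 of the Kdm4 family in Fbxw7 KO and 23.8% ± 1.4 in WT. Shares within a family depend on each other, so a higher share of one enzyme lowers those of its relatives.

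**Figure D5:**
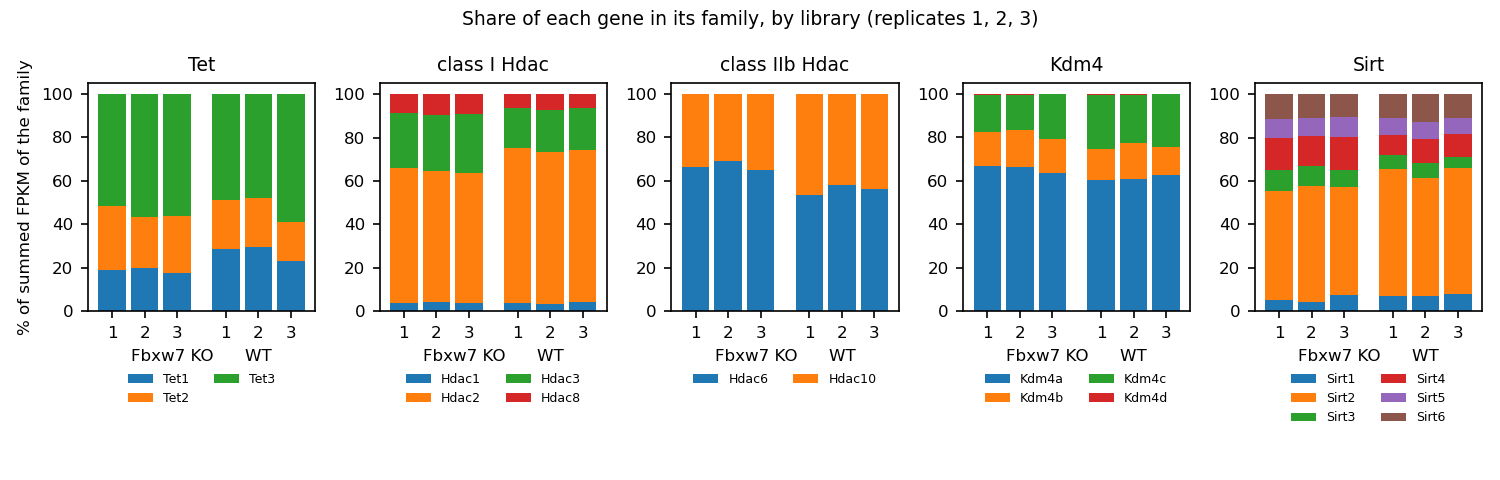
Share of each gene in the summed FPKM of its family, in percent, for 5 families, Fbxw7 KO replicates 1 to 3 left of WT replicates 1 to 3 (stacked bars, one per library). Hdac3 and Hdac8 take larger and Hdac2 smaller shares in all 3 knockout libraries, and Tet1 is at most 19.9% there, against at least 23% in WT.

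Other genes of these pathways, namely further histone-modifying enzymes, subunits of the complexes and cofactor enzymes, were taken from a list of 83. Of these 82 were tested, and 6 rose and 2 fell (9.76%, where 16.1% of all loci were called), with a median log2 fold change of 0.06. The largest increase was that of Rcor2, a CoREST subunit that binds Kdm1a, which read 13.9, 14.8 and 16.1 CPM in Fbxw7 KO libraries, against 8.81, 9.66 and 7.37 CPM in WT libraries. Its log2 fold change was 0.80 ± 0.14 (SE; edgeR, Benjamini-Hochberg adjusted p = 0.00962). Gatad2b, a NuRD subunit, rose by 0.43 (adjusted p = 0.0116), Smyd3, a lysine methyltransferase, by 0.44 (0.0218) and Sin3a, the scaffold of a corepressor that holds Hdac2, by 0.34 (0.028), all in edgeR with Benjamini-Hochberg adjustment. Jmjd1c, a JmjC protein related to Kdm3a, fell. It read 88.5, 70.4 and 107 CPM in Fbxw7 KO libraries, against 177, 177 and 142 CPM in WT libraries, with a log2 fold change of -0.90 ± 0.17 (SE; edgeR, Benjamini-Hochberg adjusted p = 0.0111), and like Tet1 it lies on chromosome 10. Mat2b, a regulatory subunit of the enzyme that makes the methyl donor S-adenosylmethionine, fell by 0.43 (adjusted p = 0.0182 in edgeR). Ncor1, a corepressor that binds Hdac3, averaged 180 ± 8.98 CPM in Fbxw7 KO and 208 ± 15.5 CPM in WT and did not pass. Uhrf1, which guides Dnmt1 to newly replicated DNA, read 26.1, 24.7 and 28 CPM in Fbxw7 KO libraries, against 10.8, 10.8 and 27.2 CPM in WT libraries; WT replicate 3 was high as for Dnmt1, and the gene did not pass. Ncor1 and Uhrf1 were picked from the 83 after their values were seen. Without Fbxw7 KO replicate 1, 2 or 3 the count of 8 was 2, 4 or 10, with 6.79%, 8.5% or 19.1% of all loci called. Without WT replicate 1, 2 or 3 it was 3, 4 or 13, with 7.56%, 7.39% or 18.5% of all loci called.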

How the data were processed

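Per the submitters' processing notes, the tools were Cufflinks 2.2.1, TopHat2 2.1.1, deepTools and SAMtools 1.5, with the mm10 build; for annotation and strand setting, values are not given in the sources used here. Deposited by the authors were estimated counts (expected fragments per locus, already scaled between libraries) with a status word each, and FPKM, which divides by transcript length, both laid out as Cufflinks tables per the file headers. Unnamed loci (1317, with at most 3.13e-05% of any library's fragments) were dropped, and no enzyme locus was marked HIDATA or FAIL.

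The design had assumed whole counts; the expected counts were rounded, filtered by filterByExpr, scaled by TMM and fitted on genotype alone by the robust two-sided quasi-likelihood test of edgeR 4.0.16 (R 4.3.3), with Benjamini-Hochberg adjustment over all 16787 loci and a threshold of 0.05. CPM use the same factors, and errors are SD over 3 libraries or the SE of the fit. The procedure was tested on simulated data. Shares of summed FPKM were compared by exact permutation; genes whose locus holds another coding or predicted gene (Setd1a, Kdm2b, Sirt7) were left out, and with them the Setd1 and Kdm2 families. Positions came from GENCODE M21.

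Every enzyme gene could be named; those past the threshold got all values, and of the related genes the 5 smallest adjusted p in each direction were named, except 1 that is not reported here. The members, the gene lists and the alternatives were chosen with earlier results of these data known. Alternatives were DESeq2 1.42.0 size factors and its Wald test, library size only, other count filters, a replicate block, the removal of each library, replicate 3 of both genotypes left out, replicates 1 and 2 summed, and limma 3.58.1 on log2(FPKM + 1) or log2(FPKM + 0.1). PCR duplicates carried no molecular identifiers, so depth gives an upper bound on counting precision.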

Additional observations from a re-analysis of the deposited data

How the results depend on the processing

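Of the 62 enzyme genes 6 were called in the report's fit, and of all loci 2705. The enzyme count was 5 with DESeq2 size factors or no count filter, 6 at a CPM of at least 1 in 3 libraries, 11 with library size only, 12 with the DESeq2 Wald test, 2 with limma on log2(FPKM + 1) or log2(FPKM + 0.1), and 0 with limma on log2(FPKM + 1) without a filter. It was 1 to 6 with single libraries left out, 26 with both replicates 3 left out and 0 with replicates 1 and 2 summed. The count over all loci was 1169 to 3282 with single libraries left out, 6993 without replicate 3, 484 with replicates summed, and 1562 (588 higher, 974 lower), 1615 and 1182 in the limma fits. That of the 8 related genes was 2 to 13 with single libraries left out, 39 without replicate 3, 0 with replicates summed, 14 with the Wald test and 3 with unfiltered limma. The 18 family shares that did not overlap numbered 19 to 27 in the smaller sets and 24 on counts. Leaving out a library cannot undo a lack of overlap, so the smaller sets could not give fewer than 18.

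Same-numbered libraries deviated together with correlations of 0.024, 0.098 and 0.079, and not every library matched its own number best, so the numbers are not taken as pairs; with the replicate block 4 enzyme genes (Tet1, Hdac3, Setd6, Suv39h2), 7 related genes and 2356 loci were called. With single libraries left out the estimate of Dnmt1 was -0.07 to 0.33 and that of Tet2 was -0.03 to 0.30; Dnmt1 was below 0 without WT replicate 1 (-0.06) or 2, and with replicates summed (-0.08), and Tet2 without WT replicate 3 and without both replicates 3 (-0.02). The cause of these shifts was not tested. Over 54 genes with printed fold changes, 780 alternative estimates kept direction and side of the threshold. The 780 include genes that were not called and stayed uncalled. Another 92 kept direction only and lost the call, 38 gained it and 5 turned round. The call was kept in 13 of 17 alternatives for Tet1, 12 for Hdac3, 9 for Setd6 and 6 for Dnmt3l. For Hdac6 and Kdm8 it was kept in 5 each. Kdm4d and Hdac9, the genes with the lowest CPM, had the widest 95% intervals.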

Other observations

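The loci called around Tet1 all fell. Within 1000 kb on either side of Tet1, 23 other loci were tested: 19 had log2 fold changes below 0 and 4 above. Of these 23, 4 fell and none rose, and the median was -0.36. Over all loci 8.08% fell and 8.03% rose (16.1% together). On chromosome 10, 197 of 823 loci fell and 47 rose (29.6% together), with a median of -0.28. Hk1, which encodes the glycolytic enzyme hexokinase, read 126, 131 and 129 CPM in Fbxw7 KO libraries, against 184, 199 and 201 CPM in WT libraries, with a log2 fold change of -0.60 ± 0.08 (SE; edgeR, Benjamini-Hochberg adjusted p = 0.0038). Vps26a, a subunit of the retromer that recycles endosomal cargo, was at -0.48 ± 0.12 (adjusted p = 0.0315 in edgeR), Kif1bp at -0.42 ± 0.09 (0.0204) and the mitochondrial carrier Slc25a16 at -0.39 ± 0.10 (0.035). Each of these estimates was smaller in size than the -1.07 of Tet1; the difference was not tested, and these genes were picked after their values were seen.

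The same windows were counted around the other genes past the threshold. For comparison, 8.03% of all loci rose and 8.08% fell (16.1% together). Around Hdac3, 7 of 41 other tested loci within 1000 kb rose and 0 fell, with a median of 0.16. Most of those that rose around Hdac3 are protocadherin genes of the Pcdhb cluster. Around Dnmt3l, which rose, 5 of 28 rose and 8 fell, with a median of -0.16. This is a larger share called than the 16.1% of all loci and the 29.6% of chromosome 10, where Dnmt3l lies. Around Setd6, which rose, 2 of 27 rose and 5 fell, and around Kdm8, which fell, 1 of 13 rose and 0 fell. Around Hdac6, 2 of 35 tested loci rose and 1 fell, and the other X-linked enzyme nearest to it, Suv39h1, lies 113 kb away.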
